A study of Mus musculus with 73 samples.

Results

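The proteasome genes described here are the 50 genes, of 25220 with a value in the deposited expression table, whose symbols begin with Psma, Psmb, Psmc, Psmd, Psme, Psmf or Psmg followed by a digit, without pseudogene entries. They comprise 8 alpha ring genes, 11 beta ring genes, 6 genes of the ATPase ring, 14 Psmd genes of the lid and the rest of the cap, 5 activator genes, the inhibitor gene Psmf1 and the 4 assembly chaperone genes Psmg1 to Psmg4. The last of the 50, Psmc3ip, was caught by the symbol pattern only: its product is a partner of the meiotic recombinases and is no part of the proteasome.

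The series asks how the histone variant H3.3 is distributed over the genome of oocytes and early mouse embryos, and 8 of its 73 samples are RNA-seq libraries. They come from hybrid C57BL/6 / C3H embryos cultured in KSOM, an embryo culture medium, and fall into 3 groups: EGFP 8-cell embryos (3 libraries), p150DN 8-cell embryos (3 libraries) and EGFP blastocysts (2 libraries). The name p150 is that of the large subunit of CAF-1, a histone chaperone that loads histones onto replicated DNA and whose large subunit is encoded by Chaf1a. EGFP, a green fluorescent protein, names both control groups. The labels give neither the construct behind the name p150DN, nor how either agent was introduced, nor how many embryos were pooled in a library. The other 65 samples are not analysed here. As nothing in the labels says that the replicates came from separate collections, p-values measure only the spread between these libraries.

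The 26S proteasome degrades proteins that carry ubiquitin chains. Its core is a barrel of stacked rings in which alpha subunits form the gate and beta subunits hold the proteolytic sites, while a cap with an ATPase ring and a lid recognises, unfolds and feeds in the substrate. Immune cells and cells exposed to interferon exchange the catalytic beta subunits for the inducible subunits encoded by Psmb8, Psmb9 and Psmb10, and other activators can replace the cap. In the early embryo, ubiquitin-dependent degradation removes maternal proteins while the embryo's own genome takes over.

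Levels are in FPKM, fragments scaled by gene length and by the total of counted fragments, so genes can be set side by side. Differences are on the log2(FPKM + 1) scale with the standard error (SE) of a limma fit, which understates changes of low genes, and a gene was called where its p-value, adjusted over all genes tested, was below 0.05. From the smallest steps of the values, each library held 16578207 to 22488455 counted fragments. Replicates correlated at 0.961 to 0.985 over genes, with the p150DN libraries at the lower end. Chaf1a, a check of the labels, read 27.7, 30.2 and 28.8 FPKM in EGFP 8-cell, 165, 254 and 238 in p150DN and 26.5 and 27.2 in blastocyst libraries.

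Promoter sequences were searched for short motifs, and none was found in the windows of all members. RefSeq windows on GRCm38.p6, from 250 bases before to 50 bases after the start, were found for 42 of the 50 members, and not for Psma8, Psmb1, Psmb2, Psmb7, Psmc3, Psmd3, Psmd7 and Psmg2. The letters CCGGAAG, the core bound by ETS factors, were found on either strand in the windows of 15 of 42 members (35.7%), against 9.93% of 27025 genes, whose windows were not matched for base composition. Among them are an ATPase gene (Psmc1), genes of the lid (Psmd6, Psmd11 and Psmd12), an activator gene (Psme4), a chaperone gene (Psmg1) and the unrelated Psmc3ip. The 70 bases just before their starts follow, 5′ to 3′ on the strand of the gene, with CCGGAAG or its reverse complement in capitals.
Psmc1 (chr12:100110132-100110201, plus strand): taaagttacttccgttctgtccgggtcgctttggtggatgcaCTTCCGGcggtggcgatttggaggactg
Psmd6 (chr14:14120946-14121015, minus strand): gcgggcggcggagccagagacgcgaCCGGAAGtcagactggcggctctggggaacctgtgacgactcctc
Psmd11 (chr11:80428545-80428614, plus strand): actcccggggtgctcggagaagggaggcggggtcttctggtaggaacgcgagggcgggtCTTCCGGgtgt
Psmd12 (chr11:107479458-107479527, plus strand): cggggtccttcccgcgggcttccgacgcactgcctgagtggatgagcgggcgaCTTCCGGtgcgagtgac
Psme4 (chr11:30771705-30771774, plus strand): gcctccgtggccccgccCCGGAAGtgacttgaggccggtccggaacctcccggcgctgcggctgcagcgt
Psmg1 (chr16:95990961-95991030, minus strand): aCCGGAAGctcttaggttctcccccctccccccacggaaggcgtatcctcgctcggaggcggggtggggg
Psmc3ip (chr11:101095436-101095505, minus strand): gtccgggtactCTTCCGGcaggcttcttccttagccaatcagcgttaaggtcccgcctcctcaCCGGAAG
In the blastocysts described below, limma called 14 of these 15 genes higher and Psmc3ip lower, beside 42 higher and 3 lower of all 47 members tested. Over all genes tested there, 42.6% were called higher and 24.9% lower. The calls of Psma6 and Psmd4 were each lost in 6 of 15 alternative settings, that of Psmd11 in 5 and that of Psme3 in 4. Each of these calls was lost without blastocyst library 2. In p150DN embryos 5 of the 15 were called higher and Psmc3ip lower, beside 26 higher and 1 lower of 45 tested. The shares over all genes were 24.6% higher and 9.68% lower.

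The letters TGACNNNGC, the core of the antioxidant response element that NRF1 (gene Nfe2l1) and NRF2 (gene Nfe2l2) bind, were found in the windows of 6 of 42 members (14.3%), against 13.99% of all genes. These 6 were Psmb5, Psmb6, Psmc6, Psmd9, Psmd12 and Psme4. The letters CCAAT were found for 15 of 42 (35.7%), against 41.1% of all genes. Both strands were searched for each motif, and matches of different motifs did not overlap in the members. A match is a description of the letters and does not show that a factor binds.

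In EGFP 8-cell embryos the constitutive proteasome genes were expressed at unequal levels. The 49 subunit and partner genes together held 0.949% to 0.976% of all FPKM. Psmd4, the ubiquitin receptor of the cap, was the highest at 321, 318 and 307 FPKM, followed by Psmd7, a lid subunit, and Psma6, an alpha ring subunit. Psmd7 read 269.8, 258 and 255 FPKM and Psma6 read 244, 239.8 and 259 FPKM, so the order of these last genes was not kept in every library. At the other end, the tissue-restricted Psmb11 and Psma8 and the inducible Psmb8 and Psmb9 were below 1 FPKM in each EGFP 8-cell library.

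**Figure D1:**
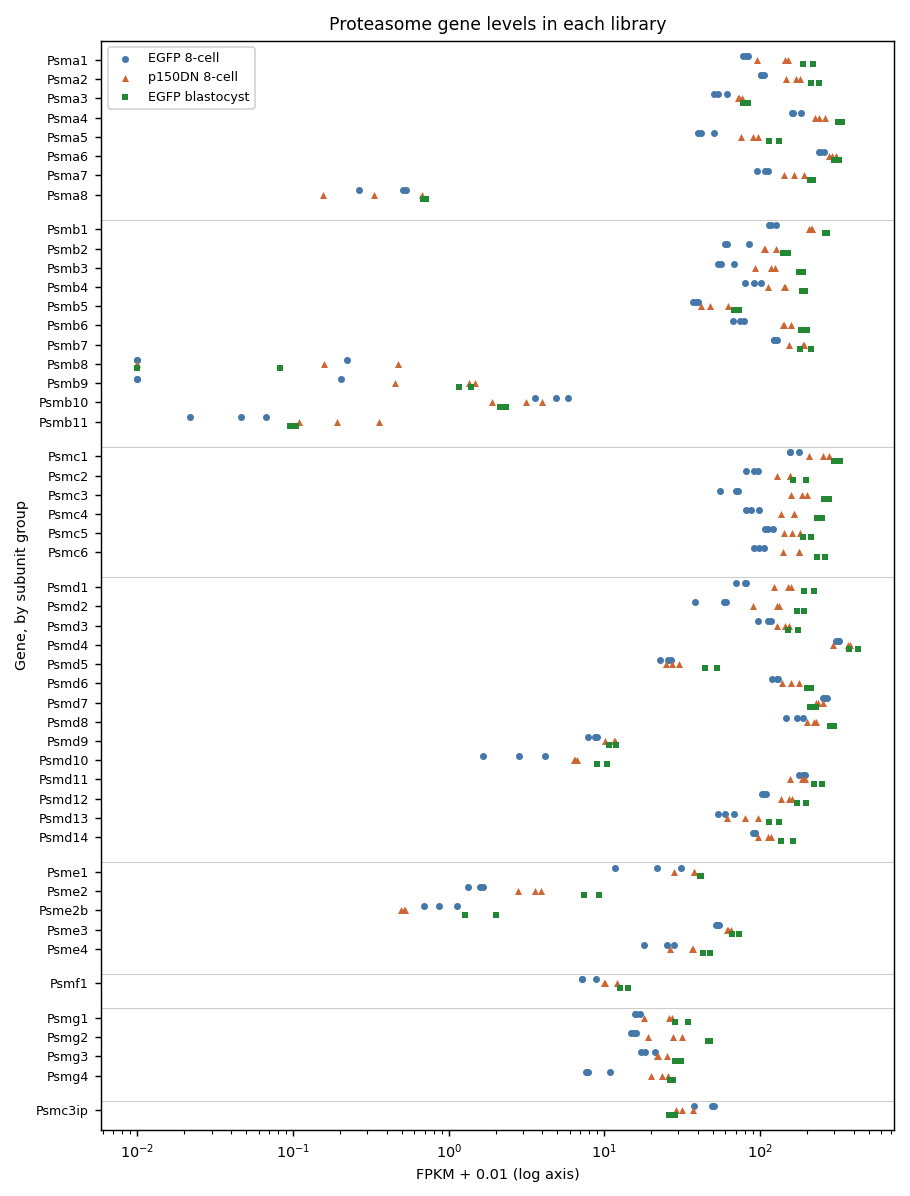
FPKM of the 50 genes in each of the 8 libraries, on a log axis after adding 0.01 FPKM so that zeros can be drawn, with circles for EGFP 8-cell, triangles for p150DN 8-cell and squares for EGFP blastocyst. For most ring genes the triangles lie between the circles and the squares, while for Psmd7 and Psmc3ip the squares lie on the left.

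Most proteasome genes were higher in p150DN 8-cell embryos than in EGFP 8-cell embryos of the same stage. Of the 45 members tested, limma called 26 higher and 1, Psmc3ip, lower. Over all 11730 genes tested the shares called were 24.6% higher and 9.68% lower. In 36 of the 45 every p150DN library stood above every EGFP library, against 34.3% of all genes, and in 1 every p150DN library stood below, against 15.5%. The median difference of the 45 was 0.50, beside 0.19 over all tested genes, and 39 of the 45 lay above that all-gene median. The members not tested were Psma8, Psmb8, Psmb9, Psmb11 and Psme2b, each with fewer than 3 libraries at 1 FPKM or more.

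The scaling of the libraries moved these counts. Under median-of-ratios scaling, which shifted the all-gene median to -0.06 and turned the calls over all genes from 2887 higher and 1136 lower to 1753 higher and 2239 lower, 11 members were called higher and 2 lower. Those 11 were Psma5, Psmb1, Psmb3, Psmb6, Psmc3, Psmc4, Psmd1, Psmd2, Psmd10, Psme2 and Psmg4, all of them among the 26. Quantile normalization gave 26 higher and 2 lower among members, with 1748 higher and 1827 lower over all genes. None of the 26 changed sign under these scalings, and the number of members above the all-gene median was 39 under the first and 42 under the second.

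Detected genes and summed trophectoderm markers were higher in p150DN than in EGFP 8-cell libraries, while the other summed stage markers overlapped. For detected genes, p150DN library 1 lay close to the EGFP range. The p150DN libraries 2 and 3 held 20465 and 21282 genes above 0, against 18412 in p150DN library 1 and 17310 to 18402 in the EGFP 8-cell libraries. Of the 45 members, 37 were lowest within the group in p150DN library 2. With libraries 2 and 3 both left out, a choice made after the data were seen, 21 members were called higher and 0 lower, against 11.3% higher and 8.23% lower of all genes tested. The summed level of 8 trophectoderm markers was 245 to 269.6 FPKM in EGFP 8-cell, 389 to 598 in p150DN 8-cell and 1163 to 1225 in blastocyst libraries, with Elf5 at 0 in each EGFP 8-cell library, and in p150DN embryos 5 of the 7 tested were called higher and 1, Tead4, lower. One of the 5, Eomes, reached the filter only through the p150DN libraries, so it should not be counted as a call. The summed level of 8 oocyte markers was 81.3 to 99.97, 37.4 to 82.3 and 10.5 to 11.5 FPKM in the same order, so p150DN library 2 overlapped the EGFP range, and 3 of 8 fell in p150DN embryos. The summed level of 6 inner cell mass markers was 473 to 635, 551 to 780.1 and 872 to 928 FPKM, but its members were divided: 3 were called higher and 2, Esrrb and Klf2, lower in p150DN embryos, and 3 higher and 3 lower in blastocysts. Of the higher ones, Sox2 reached the filter only through the p150DN or the blastocyst libraries, so it should not be counted as a call in either comparison. The summed level of 6 primitive endoderm markers was 138 to 197, 172 to 228 and 252 to 273 FPKM, with 2 of 4 tested called higher in p150DN embryos and Gata4 lower, by a difference of -2.54. Beside these marker counts, 24.6% of all genes tested were called higher and 9.68% lower in p150DN embryos. In blastocysts the shares were 42.6% and 24.9%. The part of the shifts in detected genes and markers in the proteasome differences was not tested. In such bulk libraries, fewer cells of a type and less RNA per cell cannot be told apart.

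In blastocysts nearly every tested proteasome gene was higher. Limma called 42 of 47 tested members higher and 3 lower in EGFP blastocysts than in EGFP 8-cell embryos, against 42.6% higher and 24.9% lower of 12199 genes. The 3 lower members were Psmb10, Psmd7 and Psmc3ip, the 2 not called were Psmd9 and Psme2b, and Psma8, Psmb8 and Psmb11 were not tested. Psmb9 reached the filter only through the blastocyst libraries, and without it 41 of 46 were called higher. The groups did not overlap in 44 members that were higher, against 49.3% of all genes, and in 3 that were lower, against 30.3%. The median difference was 0.93, beside 0.28 over all tested genes. Of the 47 members, 21 were called higher at a log2 difference of at least 1, against 2967 of 12199 genes. Both the 44 and the 21 still count Psmb9. Median-of-ratios scaling gave 35 members higher and 3 lower, with the calls over all genes going from 5198 higher and 3038 lower to 4289 and 3751, and quantile normalization gave 41 higher and 3 lower, with 3997 and 3902 over all genes. In both blastocyst libraries the 49 genes took 1.46% and 1.61% of all FPKM.

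Set directly against the blastocysts, the p150DN embryos had 0 members called higher and 12 lower of 47 tested, against 11.9% higher and 14.2% lower of 12648 genes. Every p150DN library lay below both blastocyst libraries in 38 members, against 33.8% of all genes, and above both in 2, Psmd7 and Psmc3ip, against 27.1%. The median difference was -0.39, beside -0.05 over all genes. The count of 12 rested on both blastocyst libraries: it was 0 without either of them, and 6 without p150DN library 3. Lower calls over all genes fell with it, to 1.32% without blastocyst library 1, 0.781% without blastocyst library 2 and 11.5% without p150DN library 3. It was also 6 under TPM scaling, which gives each library the same total and turned the calls over all genes from 1500 higher and 1801 lower to 1819 and 1223. The 3 comparisons share libraries pairwise, so they are given side by side and are not independent.

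**Figure D2:**
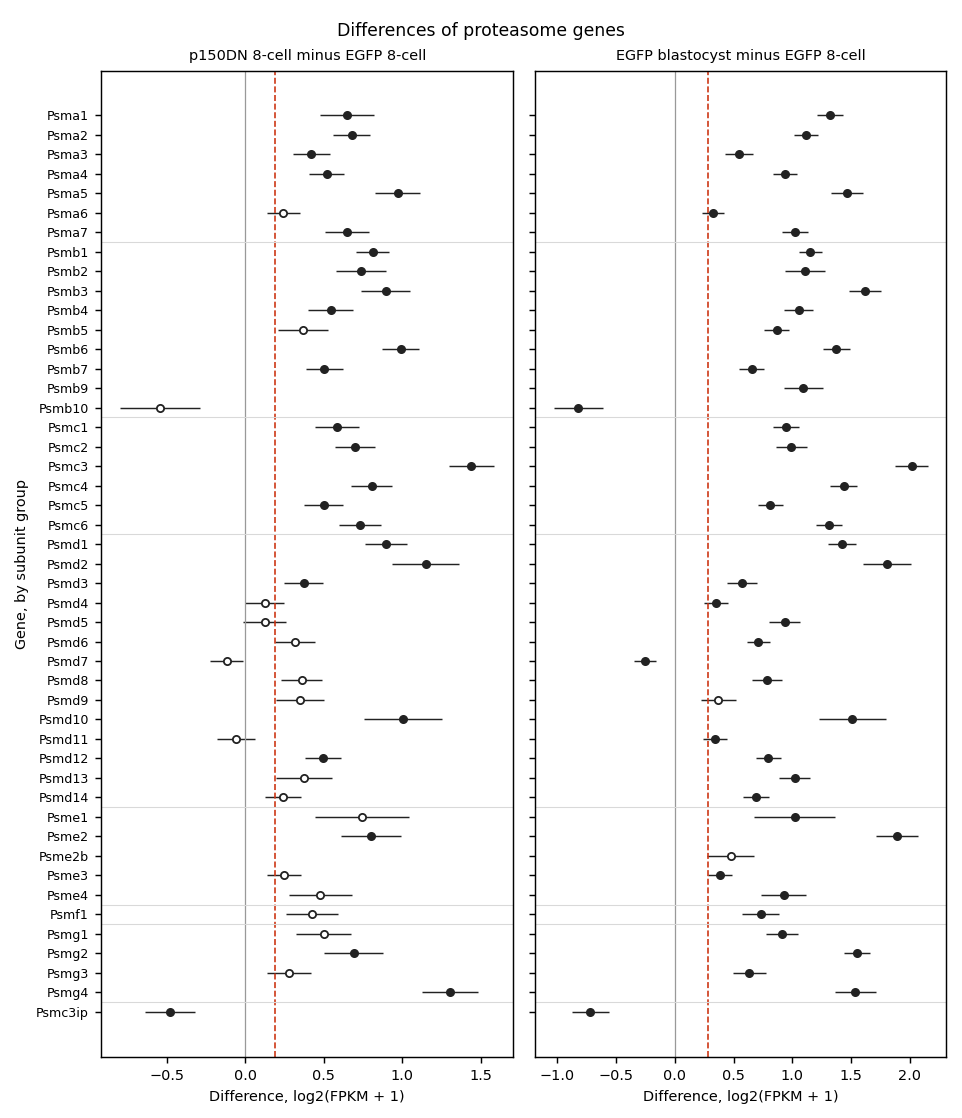
Difference on the log2(FPKM + 1) scale for each tested member, p150DN 8-cell minus EGFP 8-cell on the left and EGFP blastocyst minus EGFP 8-cell on the right, with bars of 1 SE, filled points for called genes and a dashed line at the median of all tested genes. Both panels use the same EGFP 8-cell libraries. Psmc3 lies farthest to the right in both panels, at 1.44 and 2.01, and Psmb10 farthest to the left, at -0.54 (not called) and -0.82.

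The alpha ring forms the outer rings of the core and its gate. In p150DN embryos 6 of 7 tested alpha genes rose, against 24.6% of all genes, with a median difference of 0.65. In blastocysts 7 of 7 rose, against 42.6% of all genes, with a median of 1.02. The p150DN calls of Psma1 and Psma3 were each lost in 7 of 17 alternative settings, of which 5 and 3 left out a single library. Psma5 changed most. It read 42.0, 40.1 and 50.9 FPKM in EGFP 8-cell libraries, 90.8, 75.8 and 97.0 in p150DN libraries and 115 and 132 in blastocyst libraries. The 3 groups did not overlap. The difference of Psma5 was 0.97 ± 0.15 (SE) in p150DN embryos (limma adjusted p = 0.00178, n = 3 and 3) and 1.46 ± 0.14 in blastocysts (adjusted p = 1.38e-04, n = 2 and 3).

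Psma6 changed least of the alpha genes. Its levels of 293, 278 and 309 FPKM in p150DN libraries all stood above the EGFP range of 239.8 to 259 FPKM, yet the difference of 0.24 ± 0.10 missed the threshold (limma adjusted p = 0.104) and fell to -0.05 under median-of-ratios scaling. Its rise in blastocysts, 0.33 ± 0.10 (limma adjusted p = 0.020), was lost when EGFP library 1 or either blastocyst library was left out. Psma4 was the alpha gene called lower in p150DN embryos than in blastocysts, with 242, 227 and 264 against 316 and 335 FPKM and a difference of -0.42 ± 0.13 (limma adjusted p = 0.0495). That call was lost in 12 of 16 alternative settings, among them each omission of 1 library. Its level in EGFP 8-cell libraries was 162, 184 and 164 FPKM, below every other library.

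Psma8, an alpha subunit of spermatogenic cells, was carried by few fragments: 9, 17 and 17 in EGFP 8-cell libraries, 5, 22 and 9 in p150DN libraries and 22 and 27 in blastocyst libraries. The p150DN counts enclosed the EGFP counts and reached the lower of the blastocyst counts. At up to 0.71 FPKM it stayed far below Psma7, its closest relative in the ring, at 95.7, 113 and 108 FPKM in EGFP 8-cell libraries.

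The beta ring carries the proteolytic sites. Of the 8 beta genes tested in p150DN embryos 6 rose, against 24.6% of all genes, with a median difference of 0.64. In blastocysts, with Psmb9 set aside, 7 of 8 rose, against 42.6% of all genes, and Psmb10 fell, with a median of 1.08. The p150DN call of Psmb4 was lost in 5 of 17 alternative settings. Psmb6, which holds the caspase-like site, showed the largest rise in p150DN embryos. It stood at 74.9, 67.3 and 79.2 FPKM in EGFP 8-cell, 144, 139.9 and 159 in p150DN and 183 and 202 in blastocyst libraries. Each group lay apart from the next. Its differences were 0.99 ± 0.12 in p150DN embryos (limma adjusted p = 6.79e-04) and 1.37 ± 0.11 in blastocysts (adjusted p = 8.41e-05).

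Psmb7, the subunit with the trypsin-like site, read 123, 123 and 128 FPKM in EGFP 8-cell libraries, 188, 155 and 192 in p150DN libraries and 182 and 213 in blastocyst libraries. The p150DN and blastocyst ranges overlapped. Psmb7 rose by 0.50 ± 0.12 in p150DN embryos (limma adjusted p = 0.0125), a call lost without EGFP library 1 or p150DN library 3, and by 0.65 ± 0.11 in blastocysts (adjusted p = 0.0014). Psmb5, the subunit with the chymotrypsin-like site, was the lowest of the constitutive beta genes in each of the 8 libraries. It stood at 37.2, 39.0 and 39.8 FPKM in EGFP 8-cell libraries, 47.8, 42.0 and 62.7 in p150DN libraries and 68.6 and 74.0 in blastocyst libraries. Its difference of 0.37 ± 0.16 in p150DN embryos missed the threshold (limma adjusted p = 0.104), and in blastocysts it rose by 0.86 ± 0.10 (adjusted p = 3.92e-04).

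Among the beta subunits without a proteolytic site, Psmb3 rose most in blastocysts. Its levels were 53.6, 56.2 and 68.7 FPKM in EGFP 8-cell, 124, 92.5 and 118 in p150DN and 177 and 189.9 in blastocyst libraries. No group overlapped another. Psmb3 rose by 0.89 ± 0.15 in p150DN embryos (limma adjusted p = 0.0032) and by 1.62 ± 0.13 in blastocysts (adjusted p = 8.18e-05), and was lower in p150DN embryos than in blastocysts by a signed difference of -0.72 ± 0.16 (adjusted p = 0.0204).

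The ATPase ring unfolds substrates and threads them into the core. All 6 genes, Psmc1 to Psmc6, were called higher in p150DN embryos, with differences from 0.50 (Psmc5) to 1.44 (Psmc3) and a median of 0.71. All 6 were also called higher in blastocysts, with a median of 1.15. These medians lay 0.52 and 0.87 above the all-gene medians. Over all genes 24.6% and 42.6% were called higher in the same order. In each gene the p150DN libraries lay above the EGFP libraries. The calls of Psmc1, without EGFP library 1, and Psmc5, without EGFP library 2 or p150DN library 3, were lost in p150DN embryos, and Psmc1, Psmc2, Psmc5 and Psmc6 were not called there under median-of-ratios scaling.

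Psmc3 was the lowest ATPase gene in each EGFP 8-cell library and the member with the largest rise in both comparisons. It read 70.3, 55.7 and 72.5 FPKM in EGFP 8-cell libraries, 186, 158 and 199.8 in p150DN libraries and 258 and 279 in blastocyst libraries, resting on 2394, 1843 and 2291 fragments in the first group. The groups stood apart, with p150DN between the other two. Psmc3 rose by 1.44 ± 0.15 in p150DN embryos (limma adjusted p = 3.95e-04) and by 2.01 ± 0.14 in blastocysts (adjusted p = 4.55e-05).

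Psmc4, Psmc3 and Psmc6 were called lower in p150DN embryos than in blastocysts. Psmc4 showed the largest of these differences, with 166, 137 and 167 FPKM in p150DN libraries, 234 and 249.9 in blastocyst libraries and 81.2, 87.5 and 98.0 in EGFP 8-cell libraries. Its difference between p150DN embryos and blastocysts was -0.63 ± 0.14 (limma adjusted p = 0.0206). As with the other members called in this comparison, the call was lost without either blastocyst library.

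Summed over each ring, the constitutive alpha genes Psma1 to Psma7 stood at 807 ± 15.4 FPKM (SD, n = 3) in EGFP 8-cell, 1163 ± 114 (n = 3) in p150DN and 1487 ± 95.9 (n = 2) in blastocyst libraries. The constitutive beta genes Psmb1 to Psmb7 summed to 577 ± 46.8, 948 ± 78.7 and 1249.8 ± 66.3 FPKM in the same order. The ATPase genes summed to 621 ± 37.5, 1059 ± 125 and 1453 ± 109 FPKM. For each of these rings the 3 groups did not overlap.

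Subunits of a ring are needed in equal numbers, and their levels were compared within each library. The highest ATPase gene exceeded the lowest 2.21, 2.79 and 2.47 times in the EGFP 8-cell libraries, 1.79, 1.60 and 1.61 times in the p150DN libraries and 1.82 and 1.66 times in the blastocyst libraries. Every EGFP 8-cell library had the wider ATPase spread, with Psmc3 the lowest gene there and Psmc2 the lowest in the other 5 libraries. In the alpha ring the ratio was 5.82, 5.98 and 5.09 in EGFP 8-cell, 4.00, 3.85 and 4.03 in p150DN and 4.03 and 4.02 in blastocyst libraries, with Psma5 the lowest gene in the first group and Psma3 in the others. In the beta ring the ratio was 3.3, 3.16 and 3.21 in EGFP 8-cell, 4.51, 5.04 and 3.3 in p150DN and 3.85 and 3.67 in blastocyst libraries, so the beta ratio was not lower outside the EGFP 8-cell group. These ratios are descriptions of the libraries and were not tested.

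**Figure D3:**
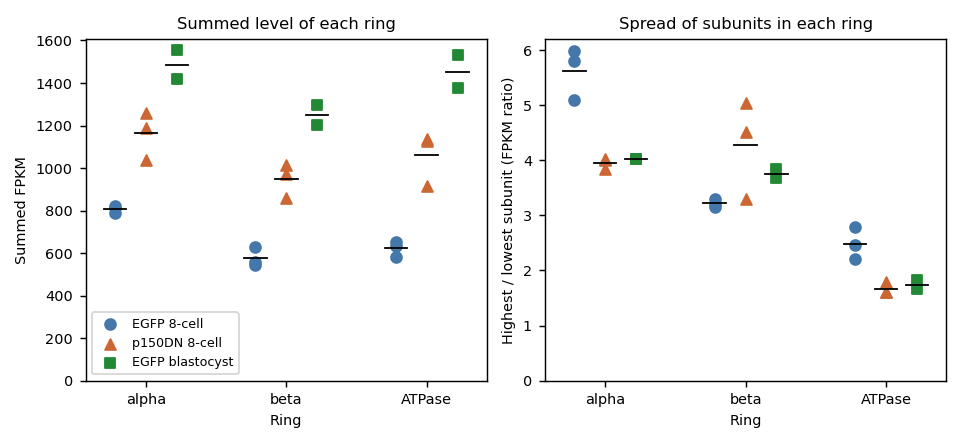
Summed FPKM of the constitutive alpha, beta and ATPase rings (left, axis from 0) and the ratio of the highest to the lowest subunit in each ring (right), with 1 point per library, circles for EGFP 8-cell, triangles for p150DN 8-cell, squares for EGFP blastocyst and a bar at each group's mean. Sums rise from EGFP 8-cell through p150DN to blastocyst in each ring, while the ratios in the alpha and ATPase rings are lower in both other groups than in EGFP 8-cell libraries and those in the beta ring are not.

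The Psmd genes of the cap were divided. In p150DN embryos 5 of 14 rose (Psmd1, Psmd2, Psmd3, Psmd10 and Psmd12), against 24.6% of all genes. The median difference over the 14 was 0.35. The call of Psmd3, with a difference of 0.37 ± 0.13 (limma adjusted p = 0.0467), was lost in 10 of 17 alternative settings, including the omission of any 1 library other than p150DN library 2. In blastocysts 12 of the 14 rose, against 42.6% of all genes, and Psmd7 fell, with a median of 0.75. Summed, they read 1594 ± 52.6 FPKM (SD, n = 3) in EGFP 8-cell, 1931 ± 203 (n = 3) in p150DN and 2442 ± 202 (n = 2) in blastocyst libraries. Psmd2 and Psmd1, the large scaffold subunits at the base of the cap, rose by 1.15 and 0.90 in p150DN embryos. Psmd2 read 58.9, 38.3 and 61.0 FPKM in EGFP 8-cell, 134, 90.5 and 129 in p150DN and 173 and 194 in blastocyst libraries. The groups did not overlap, and within the 8-cell groups library 2 was the lowest of each. The differences of Psmd2 were 1.15 ± 0.21 in p150DN embryos (limma adjusted p = 0.00429) and 1.80 ± 0.21 in blastocysts (adjusted p = 3.00e-04).

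Psmd10, which encodes the chaperone gankyrin that helps to assemble the base, rose from a low level. It read 1.65, 4.18 and 2.84 FPKM in EGFP 8-cell, 6.64, 6.43 and 6.50 in p150DN and 8.94 and 10.4 in blastocyst libraries. The EGFP libraries scattered and the p150DN libraries lay close together above them. Its difference in p150DN embryos was 1.00 ± 0.25 (limma adjusted p = 0.0148), not called under quantile normalization. Psmd5, another base chaperone, behaved otherwise: it read 26.6, 22.9 and 25.5 FPKM in EGFP 8-cell, 30.0, 25.0 and 27.1 in p150DN and 44.5 and 53.0 in blastocyst libraries. Both 8-cell groups overlapped and both blastocyst libraries stood apart. Its difference of 0.12 ± 0.14 in p150DN embryos was not called (limma adjusted p = 0.50), it rose by 0.93 ± 0.13 in blastocysts (adjusted p = 7.65e-04), and it was lower in p150DN embryos than in blastocysts by a signed difference of -0.81 ± 0.15 (adjusted p = 0.0135).

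Psmd7, a lid subunit that pairs with the deubiquitinase Psmd14, was the one Psmd gene called lower in blastocysts. It read 269.8, 258 and 255 FPKM in EGFP 8-cell, 255, 230.3 and 236 in p150DN and 209.6 and 228 in blastocyst libraries. The blastocyst libraries lay below all others, and both 8-cell groups overlapped at their edges. The difference in blastocysts was -0.25 ± 0.10 (limma adjusted p = 0.0491), and the call was lost when any 1 of the 5 libraries was left out. Psmd14 itself, the enzyme that removes ubiquitin chains, read 93.3, 92.8 and 90.4 FPKM in EGFP 8-cell, 117, 97.6 and 113 in p150DN and 136 and 163 in blastocyst libraries. The p150DN libraries lay above the EGFP libraries by a difference of 0.24 ± 0.12 that was not called (limma adjusted p = 0.136), and Psmd14 rose by 0.69 ± 0.11 in blastocysts (adjusted p = 0.00138).

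The activators dock on the core in place of the cap. Psme1 and Psme2 encode the subunits of PA28, which interferon induces in other tissues, Psme3 the nuclear PA28 gamma and Psme4 the large activator PA200, known for its role in spermatogenesis. In p150DN embryos 1 of 4 tested activator genes, Psme2, rose, near the share of 24.6% called higher over all genes. In blastocysts 4 of 5 rose, against 42.6% of all genes. Psme2 stood at 1.33, 1.57 and 1.64 FPKM in EGFP 8-cell, 2.76, 3.56 and 3.89 in p150DN and 9.25 and 7.42 in blastocyst libraries. The groups did not overlap, although the EGFP values rest on only 27, 31 and 31 fragments. Its differences were 0.80 ± 0.19 in p150DN embryos (limma adjusted p = 0.0128), lost without EGFP library 1 or p150DN library 3 and under quantile normalization, 1.89 ± 0.18 in blastocysts (adjusted p = 1.31e-04) and -1.09 ± 0.21 for p150DN embryos minus blastocysts (adjusted p = 0.0137).

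Psme2b, a near-identical copy of Psme2 on chromosome 11, read 0.862, 1.12 and 0.684 FPKM in EGFP 8-cell, 0.510, 0.483 and 0.513 in p150DN and 1.27 and 2.02 in blastocyst libraries. It was lowest in the p150DN libraries and highest in the blastocysts. The sources used here do not say how fragments were split between the copies, so the values of both genes are uncertain. Psme2 itself lay on chromosome 14, near Psme1.

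Psme1 scattered most among the activators, at 21.8, 11.8 and 31.1 FPKM in EGFP 8-cell, 37.9, 28.0 and 37.8 in p150DN and 41.4 and 42.1 in blastocyst libraries. EGFP library 3 reached into the p150DN range. Its difference in p150DN embryos was 0.74 ± 0.30 and was not called (limma adjusted p = 0.086), and its rise of 1.02 ± 0.34 in blastocysts (adjusted p = 0.033) was lost without EGFP library 1 or either blastocyst library. Psme4 read 25.2, 18.0 and 28.1 FPKM in EGFP 8-cell, 36.9, 26.4 and 36.9 in p150DN and 43.0 and 47.8 in blastocyst libraries. The 8-cell groups overlapped, with library 2 the lowest in both. Psme4 differed by 0.48 ± 0.20 in p150DN embryos, not called (limma adjusted p = 0.0952), and rose by 0.93 ± 0.19 in blastocysts (adjusted p = 0.00437).

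Psme3 was the highest activator gene in each library. It read 51.9, 52.8 and 54.6 FPKM in EGFP 8-cell, 62.4, 65.5 and 61.9 in p150DN and 65.8 and 73.5 in blastocyst libraries. The replicates lay close together and the groups did not overlap. The difference in p150DN embryos, 0.25 ± 0.11, was not called (limma adjusted p = 0.109) and was -0.04 under median-of-ratios scaling, while the rise in blastocysts was 0.38 ± 0.11 (adjusted p = 0.0148), lost without EGFP library 1 or blastocyst library 2.

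The inhibitor gene Psmf1, whose product PI31 binds the core, read 7.14, 7.15 and 8.86 FPKM in EGFP 8-cell, 12.0, 10.1 and 10.0 in p150DN and 12.6 and 14.2 in blastocyst libraries. The groups did not overlap. Its difference was 0.43 ± 0.17 in p150DN embryos, not called (limma adjusted p = 0.0763), and it rose by 0.73 ± 0.16 in blastocysts (adjusted p = 0.00555). The spans of Psmf1 (with Tmem74b), Psme1 (Emc9), Psme4 (Erlec1), Psmd1 (Htr2b), Psmd10 (Atg4a) and Psmc3ip (Mlx) overlap another named gene in RefSeq, so fragments of these pairs may not have been separable.

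The Psmg genes encode the chaperones that assemble the alpha ring. In p150DN embryos 2 of 4 rose, Psmg2 and Psmg4, against 24.6% of all genes. In blastocysts all 4 rose, against 42.6% of all genes. The medians were 0.59 and 1.22. Psmg4 read 10.8, 7.85 and 7.65 FPKM in EGFP 8-cell, 19.9, 23.4 and 25.7 in p150DN and 26.5 and 27.7 in blastocyst libraries. The p150DN libraries reached close to the blastocyst libraries. Psmg4 rose by 1.30 ± 0.18 in p150DN embryos (limma adjusted p = 0.0012) and by 1.54 ± 0.17 in blastocysts (adjusted p = 3.01e-04).

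Psmg2 read 14.8, 16.0 and 15.5 FPKM in EGFP 8-cell, 31.5, 19.0 and 27.7 in p150DN and 46.3 and 47.9 in blastocyst libraries. The p150DN libraries scattered between the other groups, with library 2 the lowest. Its rise of 0.69 ± 0.19 in p150DN embryos (limma adjusted p = 0.022) was lost in each single-library omission except that of p150DN library 2, and under median-of-ratios scaling and quantile normalization. Psmg2 rose by 1.55 ± 0.11 in blastocysts (adjusted p = 5.85e-05) and was lower in p150DN embryos than in blastocysts by a signed difference of -0.86 ± 0.22 (adjusted p = 0.030).

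The inducible subunits were far lower than their constitutive counterparts. Psmb10, the inducible counterpart of Psmb7, read 3.59, 4.87 and 5.86 FPKM in EGFP 8-cell, 3.13, 3.99 and 1.90 in p150DN and 2.32 and 2.14 in blastocyst libraries, resting on 40 to 144 fragments a library. Both 8-cell groups overlapped and the blastocyst libraries lay below every EGFP 8-cell library. Psmb10 fell in blastocysts, with a difference of -0.82 ± 0.21 (limma adjusted p = 0.0111), a call lost without blastocyst library 2. In p150DN embryos its difference was -0.54 ± 0.25 and was not called (limma adjusted p = 0.127), and it was called lower there under median-of-ratios scaling and quantile normalization.

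Psmb9, the counterpart of Psmb6, held 0, 0 and 3 fragments in EGFP 8-cell libraries, 24, 7 and 18 in p150DN libraries and 18 and 25 in blastocyst libraries. The highest EGFP count was below the lowest of the other groups. In FPKM these were 0, 0 and 0.192, then 1.46, 0.444 and 1.35, then 1.15 and 1.38. Psmb9 did not reach the filter in p150DN embryos. In blastocysts the difference was 1.09 ± 0.16, given without a test because the gene reached the filter only through the blastocyst libraries. Psmb8, the counterpart of Psmb5, held 0, 0 and 5 fragments in EGFP 8-cell, 0, 11 and 3 in p150DN and 0 and 2 in blastocyst libraries. At this depth no difference of Psmb8 between groups was detectable.

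The 3 inducible genes together made up 1.51%, 2.08% and 2.48% of the FPKM of the catalytic beta genes in EGFP 8-cell libraries, 1.19%, 1.43% and 0.814% in p150DN libraries and 0.794% and 0.729% in blastocyst libraries. Each p150DN and blastocyst value lay below each EGFP 8-cell value. Psmb10 gave most of this share in each library. The inducible genes summed to 3.59, 4.87 and 6.27 FPKM in EGFP 8-cell and 4.59, 4.89 and 3.39 in p150DN libraries, which overlapped. In blastocyst libraries the inducible genes summed to 3.47 and 3.59 FPKM. Psmb5, Psmb6 and Psmb7 summed to 235, 230 and 247 FPKM in EGFP 8-cell and 380, 337 and 414 in p150DN libraries. Their sums in blastocyst libraries were 434 and 489 FPKM. The thymus-specific Psmb11 held 5, 1 and 3 fragments in EGFP 8-cell, 30, 15 and 7 in p150DN and 7 and 9 in blastocyst libraries, and stayed at or below 0.347 FPKM.

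**Figure D4:**
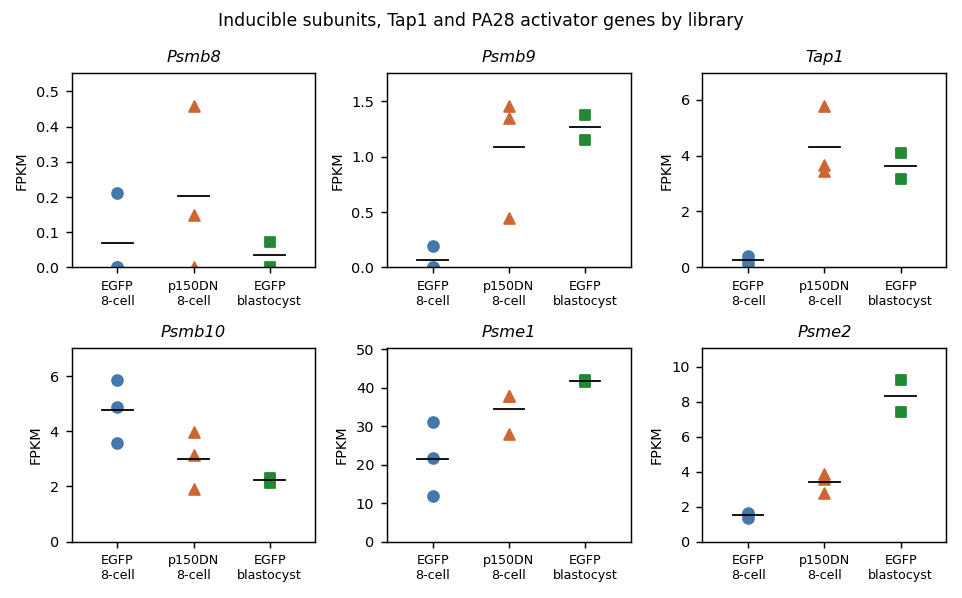
FPKM of Psmb8, Psmb9, Tap1, Psmb10, Psme1 and Psme2 in each library, with circles for EGFP 8-cell, triangles for p150DN 8-cell, squares for EGFP blastocyst, a bar at each group's mean and a separate axis from 0 for each gene. Psmb9 and Tap1 are near 0 in EGFP 8-cell libraries and higher in the others, Psme2 rises step by step to 9.25 and 7.42 FPKM in blastocysts, and Psmb10 reads 2.32 and 2.14 FPKM in blastocysts, below each EGFP 8-cell library.

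Psmb9 and Tap1, which encodes a subunit of the peptide transporter for antigen presentation, lie head to head on chromosome 17. In RefSeq on GRCm38.p6 Psmb9 covers chr17:34182030-34187330 on the minus strand and Tap1 covers chr17:34187556-34197225 on the plus strand, with Psmb8 beyond Tap1 at chr17:34198195-34201454. The 225 bases between the starts of Psmb9 and Tap1 are shown on the plus strand, with CCAAT in capitals, because both genes were near 0 in EGFP 8-cell libraries and higher in the others.
Psmb9-Tap1 (chr17:34187331-34187555, plus strand): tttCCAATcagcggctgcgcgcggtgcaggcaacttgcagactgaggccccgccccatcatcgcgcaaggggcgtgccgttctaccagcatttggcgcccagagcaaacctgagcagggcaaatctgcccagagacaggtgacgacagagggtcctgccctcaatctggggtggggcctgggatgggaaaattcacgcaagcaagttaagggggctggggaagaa
Tap1 read 0.407, 0.268 and 0.105 FPKM in EGFP 8-cell, 3.68, 5.79 and 3.44 in p150DN and 4.10 and 3.15 in blastocyst libraries. The p150DN and blastocyst ranges overlapped, and both lay above the EGFP range. The difference of Tap1 was 2.05 ± 0.23 in p150DN embryos and 1.87 ± 0.19 in blastocysts. Both are given without a test, since Tap1 reached the filter only through the p150DN or the blastocyst libraries.

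Other genes of antigen presentation and of the interferon response were mostly too low to test. Of 14 listed, 5 reached the filter in p150DN embryos, among them Tap1, which is not counted as a call for the reason given above. H2-K1 was called higher by 1.89 ± 0.18 and H2-D1 by 1.77 ± 0.32. Over all genes tested 24.6% were called higher. Both H2 genes were also called higher in blastocysts, against 42.6% of all genes. H2-K1 read 19.9, 25.7 and 26.5 FPKM in p150DN and 45.9 and 34.4 in blastocyst libraries. It was called lower in p150DN embryos than in blastocysts, against 14.2% of all genes. H2-D1 read 8.11, 22.7 and 12.6 FPKM in p150DN and 20.3 and 20.6 in blastocyst libraries, which overlapped. The H2 genes encode class I histocompatibility heavy chains and share sequence with one another, so their values are uncertain. B2m, the light chain, had a difference of 0.02 ± 0.30 and Tapbp one of 0.19 ± 0.23, neither of them called. Genes that did not reach the filter included Irf1, Nlrc5, Ifit1, Ifit3, Isg15, Gbp2, Gbp7 and Tap2. Immune cell markers were low: 8 of them summed to 5.15 to 6.87 FPKM in EGFP 8-cell, 10.4 to 15.5 in p150DN and 6.56 to 7.41 in blastocyst libraries, with Ptprc at or below 0.100 FPKM in each library and Tyrobp at 0 in each EGFP 8-cell library. In p150DN embryos Cd68, of 3 tested markers in this list, rose by 0.95, and Cd74, which reached the filter only through the p150DN libraries, had a difference of 1.17. Their part in the differences of Psmb9 and Tap1 was not tested. Markers of cumulus and granulosa cells summed to 0.125 to 1.26 FPKM, and none of the 8 reached the filter.

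Psmc3ip, the recombination gene caught by the symbol pattern, moved the other way from most members. It read 50.7, 49.2 and 37.6 FPKM in EGFP 8-cell, 37.1, 31.6 and 28.7 in p150DN and 28.6 and 26.0 in blastocyst libraries. The EGFP libraries lay above all others. Psmc3ip fell in p150DN embryos, with a difference of -0.48 ± 0.16 (limma adjusted p = 0.0453), and in blastocysts, with -0.72 ± 0.16 (adjusted p = 0.00547). The first call was lost without EGFP library 1, EGFP library 2, p150DN library 2 or p150DN library 3.

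Among 30 listed partners of the proteasome, ubiquitin genes and their shuttles, 29 were tested. In p150DN embryos 11 rose and 1 fell (Akirin2, the nuclear import adaptor of the proteasome), against 24.6% higher and 9.68% lower of all genes. Their median difference was 0.41, beside 0.19 over all genes. In blastocysts 17 rose and 5 fell (Akirin2, Ddi2, Nfe2l1, Zfand2a and Zfand5), against 42.6% and 24.9%, with a median of 0.48 beside 0.28. In p150DN embryos minus blastocysts 3 were called higher and 3 lower, against 11.9% and 14.2% of all genes. Paaf1 is not analysed here.

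Nfe2l2, which encodes the stress factor NRF2, showed the largest change. It read 2.67, 2.74 and 2.14 FPKM in EGFP 8-cell, 7.92, 10.7 and 10.9 in p150DN and 17.4 and 26.0 in blastocyst libraries. The groups did not overlap. Nfe2l2 rose by 1.62 ± 0.19 in p150DN embryos (limma adjusted p = 6.79e-04) and by 2.67 ± 0.21 in blastocysts (adjusted p = 7.17e-05). Nfe2l1, whose product NRF1 drives proteasome genes when degradation is blocked, read 34.0, 33.2 and 29.0 FPKM in EGFP 8-cell, 25.4, 34.0 and 31.0 in p150DN and 26.9 and 18.1 in blastocyst libraries. Both 8-cell groups overlapped. Its difference was -0.09 ± 0.15 in p150DN embryos, not called (limma adjusted p = 0.657), and it fell in blastocysts, with -0.52 ± 0.18 (adjusted p = 0.0377), a call lost without EGFP library 1, EGFP library 2 or blastocyst library 2.

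The ubiquitin gene Ubb rose by 1.48 ± 0.18 in p150DN embryos (limma adjusted p = 7.16e-04) and by 2.16 ± 0.16 in blastocysts (adjusted p = 6.33e-05). Vcp, the segregase that extracts proteins for degradation, rose by 0.95 ± 0.12 in p150DN embryos and by 1.18 ± 0.12 in blastocysts. Zfand2a and Zfand5, which bind the proteasome under stress, fell in blastocysts, with -1.65 ± 0.11 and -1.32 ± 0.14, and were not called in p150DN embryos, with -0.05 ± 0.11 and -0.24 ± 0.21.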

How the data were processed

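Total RNA of mouse embryos was sequenced after library preparation with the SMART-seq stranded chemistry named in the labels' protocols. The submitters' processing notes name Trim Galore, HISAT2, Bowtie2, SAMtools, featureCounts and mm10, with no roles or versions. Gene annotation, strand setting and the handling of shared reads: not given in the sources used here. For 14 members the span overlaps another RefSeq gene, and fragments of such pairs may not be separable. The authors deposited FPKM values per gene and library, with no pooling of replicates. Columns were matched to samples by their names.

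Differences were tested with limma 3.58.1 in R 4.3.3 (trended variance, two-sided, Benjamini-Hochberg over all genes tested) on log2(FPKM + 1), over genes with at least 1 FPKM in 3 libraries (p150DN against EGFP 8-cell) or 2 libraries (the comparisons with blastocysts), using only the libraries compared. No count test was run. Fragments were recovered from the value of 1 fragment in short genes and the gene length that gives whole fragments, within 0.02, in every library, which worked for all 50 members. Reads carry no molecular identifiers, so fragments are not independent molecules. The method was tested on simulated data. Motifs and sequences were read with Python 3.11.15 from RefSeq promoter tables.

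Values in every library are given for the inducible genes and their counterparts, Psma8, Psmb11, the activators, and in each subunit group the member with the largest rise and the largest fall among those called. Psmd10 and Psmd14, given the same way, and Psma6, Psma7 and Psmd4, given for some libraries only, were chosen after their values were seen. Of the partners, the 6 called with the largest difference, less 1 that is not reported here, and Nfe2l1 are given. The members and gene lists were chosen with earlier results of these data known. Alternatives were other pseudocounts, filters, scalings, variance models and sets of libraries.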

Additional observations from a re-analysis of the deposited data

How the results depend on the processing

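The 42 members called higher in blastocysts ranged from 35 to 43 over the alternatives, and the 26 called higher in p150DN embryos from 11, under median-of-ratios scaling, to 33. Leaving out 1 library gave 18 to 33 higher and 0 to 1 lower in p150DN embryos, 35 to 43 higher and 1 to 2 lower in blastocysts (1 without blastocyst library 2), and 0 higher and 0 to 15 lower for p150DN embryos minus blastocysts. The single lower call in p150DN embryos, Psmc3ip, became 0 with no filter, with no variance trend and with p150DN libraries 2 and 3 left out, while Psmb10 joined it, giving 2, under median-of-ratios scaling and quantile normalization. The 12 members lower in p150DN embryos than in blastocysts became 2 with no filter, 7 under median-of-ratios scaling, 6 with no variance trend, 22 with all 8 libraries in 1 fit, 6 under TPM scaling and 5 with p150DN libraries 2 and 3 left out. The last pair of settings was chosen after seeing the data. The count of 0 higher held in each setting run with limma, and 0 members were higher at an unadjusted p below 0.05. Where a lone library remained in a group, it was assumed to vary like the others.

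No member that was called changed sign under any alternative. Among uncalled differences in p150DN embryos, median-of-ratios scaling turned Psmd4 to -0.17, Psmd5 to -0.16, Psmd14 to -0.048, Psma6 to -0.050 and Psme3 to -0.040. Leaving out 1 library gave Psmd11 from -0.12 to 0.034 and Nfe2l1 from -0.18 to 0.022. Psmd11 turned to 0.0080 and Zfand2a to 0.0031 without p150DN libraries 2 and 3. For p150DN embryos minus blastocysts, Psmd9 turned to 0.053 under quantile normalization, 0.095 under TPM scaling and 0.040 without p150DN libraries 2 and 3, and ranged from -0.094 to 0.052 with 1 library left out. Psma6 turned to 0.011 and 0.038 under quantile normalization and TPM scaling. Psmb9 turned to 0.12 without p150DN libraries 2 and 3 and ranged from -0.30 to 0.087 with 1 library left out. The causes were not tested.

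The same replicate numbers occur in each group, but the labels do not say that a number marks a shared collection. Same-numbered p150DN and EGFP 8-cell libraries deviated from their group means with correlations of 0.0471, 0.0906 and 0.0376. Those with different numbers gave -0.0984 to 0.0612. The p150DN libraries 2 and 3 correlated best with the EGFP library of the same number, and p150DN library 1 with EGFP library 3 (0.0612). Such small correlations do not settle whether a number marks a pair, and the numbers were not taken as pairs. With the replicate number as a block, 29 members were higher and 1 lower in p150DN embryos, 40 higher and 2 lower in blastocysts, and 0 higher and 10 lower for p150DN embryos minus blastocysts. Depth limits Psmb8, Psmb9, Psmb11, Psma8 and Psme2b, which hold few fragments.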
